A study of Homo sapiens with 8 samples.

Results

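The Z-disc is the plate that anchors the thin actin filaments of neighbouring sarcomeres, and its scaffold is described here through 9 genes together with desmin, the intermediate filament that ties Z-discs to each other and to the membrane. The genes were chosen by name (ACTN2, MYPN, PALLD, LDB3, PDLIM3, PDLIM5, PDLIM7, FLNC, SYNPO2 and DES), with earlier results of these data known. All 10 were found among the 58302 genes of the count tables. RNA was sequenced from RD cells, an established human rhabdomyosarcoma line, in which the tumour cells belong to the skeletal muscle lineage. The control group of 4 libraries carried a scrambled short hairpin RNA, and the shPROX1 group of 4 libraries carried a hairpin against PROX1, a homeobox transcription factor. The series design calls the libraries biological replicates of 1 cell line, and the sources used here do not say how the cultures were separated. The labels name 1 silenced group, so that an effect of PROX1 loss and an effect of that hairpin cannot be told apart.

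In striated muscle, alpha-actinin crosslinks actin at the Z-disc, and many of the other proteins dock onto it. PDZ-LIM proteins bind alpha-actinin through a PDZ domain, myopalladin and palladin also bind it, and filamin C and synaptopodin-2 join the Z-disc to the sarcolemma and to actin bundles. Palladin, PDLIM5 and PDLIM7 are also made outside muscle, where they sit on stress fibres, whereas ACTN2, MYPN, LDB3, FLNC and DES are best known from muscle cells.

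Total counts ran from 3747090 to 4865161 per library, and 3 counts, the limit that a count of 0 allows, correspond to 0.617 to 0.801 CPM (counts scaled to a common library total). Such limits cover counting error only. PROX1 stood at 20.02, 16.3, 16.7 and 21.6 CPM in control replicates 1 to 4 and at 7.68, 10.3, 9.07 and 8.14 CPM in the shPROX1 replicates, without overlap (p = 0.0286 by exact permutation, two-sided, which is the lower limit for 4 against 4). The skeletal muscle markers MYOD1, MYOG, DES, CDH15, CHRNA1, PAX7 and MYF6 summed to 1358 to 1393 CPM in the control and 1137 to 1233 CPM in the shPROX1 libraries, without overlap. DES, itself one of the 10 genes, made up a mean of 545 CPM of this sum in control and 473 CPM in shPROX1. Of the 7 markers, 6 passed the filter on low counts, and MYF6 did not. Of those 6, 0 rose and 4 fell (MYOG, DES, CDH15 with a log2 change of -0.45 ± 0.07 and PAX7 with -0.41 ± 0.08), and the median was -0.30. By the test described below, 17.3% of all tested genes rose and 17.9% fell. MYOD1 and CHRNA1 did not pass it. The part of these markers in the changes of the Z-disc genes was not tested. By contrast, 18 markers of smooth muscle, fibroblasts, endothelium, leukocytes, epithelium and adipocytes reached at most 6.94 CPM per cell type in any library, and KRT5 and CDH5 had 0 counts in all 8. Mitochondrial genes took 0.0980% of counts in control replicate 1, 0.473% to 0.702% in the other control libraries and 0.120% to 0.278% in the shPROX1 libraries.

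The scaffold did not move as 1 block. In bulk RNA, a change in the number of cells that make a transcript and a change in its amount per cell cannot be told apart. Of the 10 genes, 6 rose in shPROX1 (MYPN, PALLD, PDLIM3, PDLIM5, PDLIM7 and SYNPO2), 2 fell (ACTN2 and DES) and 2 did not pass the test (FLNC and LDB3). The test was edgeR's quasi-likelihood test, with Benjamini-Hochberg adjustment over all 12392 tested genes and a threshold of 0.05. Over all tested genes 35.2% passed, 17.3% as higher and 17.9% as lower in shPROX1. The median log2 change of the 10 genes was 0.32, against -0.01 over all tested genes. In 7 of the 10 genes the CPM of the groups did not overlap, which was the case for 32.3% of all tested genes. Because the genes were chosen with earlier results known, these comparisons with all tested genes are a description and not a test. Every one of the 6 rises except that of MYPN was below 1.5-fold. A positive log2 change means a higher level in shPROX1. The error after it is a standard error derived from the log2 change and the edgeR test statistic. Levels carry the SD of the 4 libraries of a group.

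**Figure D1:**
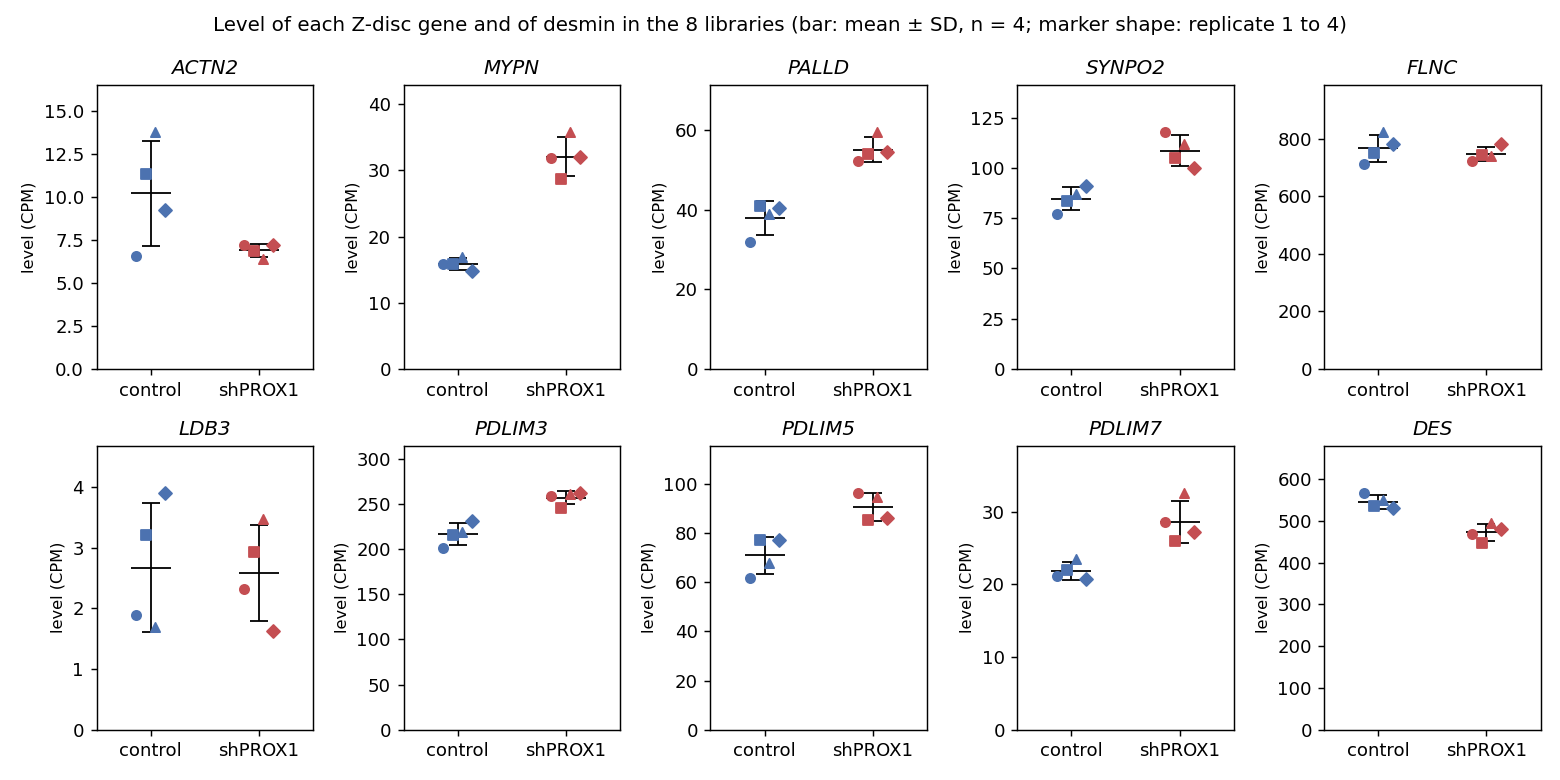
Each panel plots the CPM of 1 gene (vertical axis, from 0) in the 4 control libraries (blue) and the 4 shPROX1 libraries (red), with the marker shape giving the replicate and the bar the mean ± SD. MYPN sits between 14.8 and 16.9 CPM in control and between 28.6 and 35.8 CPM in shPROX1, whereas the groups of FLNC, LDB3 and ACTN2 overlap.

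Stretches around an annotated transcript start are shown for the gene with the largest rise, for its paralog and for the gene with the largest fall. Those of MYPN and PALLD lie wholly inside the gene spans given below. Gene counts do not show which starts the cells use. Each spans 250 bases before and 50 bases after an annotated start, from RefSeq on GRCh38.p14, 5′ to 3′ on the strand of the gene. PALLD has 3 such starts in RefSeq, and the one shown was chosen for its matches, since the others held none. Capitals mark the letters CATTCC or CAGCTG on either strand. CATTCC is the core of the M-CAT element, which TEAD factors bind, and CAGCTG is an E-box form that myogenic bHLH factors can bind. The sequences lie at chr10:68109238-68109537 (plus strand), chr4:168631328-168631627 (plus strand) and chr1:236686249-236686548 (plus strand).
MYPN: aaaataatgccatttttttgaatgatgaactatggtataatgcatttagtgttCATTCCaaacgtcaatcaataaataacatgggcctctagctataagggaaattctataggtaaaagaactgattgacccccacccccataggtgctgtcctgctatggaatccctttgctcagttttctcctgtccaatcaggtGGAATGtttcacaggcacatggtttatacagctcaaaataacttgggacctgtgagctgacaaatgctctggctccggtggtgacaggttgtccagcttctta
PALLD: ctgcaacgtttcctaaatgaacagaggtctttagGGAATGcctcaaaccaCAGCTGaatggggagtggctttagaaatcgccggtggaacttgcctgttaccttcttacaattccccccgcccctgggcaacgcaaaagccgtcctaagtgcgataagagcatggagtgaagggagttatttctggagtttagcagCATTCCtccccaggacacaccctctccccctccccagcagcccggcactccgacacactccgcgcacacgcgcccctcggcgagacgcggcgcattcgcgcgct
ACTN2: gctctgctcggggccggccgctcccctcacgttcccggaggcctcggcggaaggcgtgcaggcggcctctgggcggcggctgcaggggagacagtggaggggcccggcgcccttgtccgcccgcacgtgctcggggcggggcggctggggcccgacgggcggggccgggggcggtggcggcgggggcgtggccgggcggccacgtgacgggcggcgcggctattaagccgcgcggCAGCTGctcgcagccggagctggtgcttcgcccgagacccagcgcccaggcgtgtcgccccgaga

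The MYPN stretch held 2 copies of CATTCC and the PALLD stretch 2 copies of CATTCC and 1 of CAGCTG, while that of ACTN2 held 1 CAGCTG. RefSeq starts were matched for 9 of the 10 genes, with 14 starts in all. DES had no matched start and was not searched. CATTCC was in 4 of the 14 (in MYPN, PALLD, FLNC and SYNPO2), or 28.6%, against 14.03% of all 35116 stretches of that length. The other starts of PALLD and of SYNPO2 did not hold it. CAGCTG was in 3 of the 14 (in ACTN2, PALLD and PDLIM5), or 21.4%, against 17.9%. The CArG box, a site type bound by SRF, was present in the 2 overlapping windows of LDB3 and in 1.29% of all stretches, and the MEF2 site was in 0 of 14 and in 2.99% of all. The CATTCC and CAGCTG letters do not overlap in these stretches. A match is a run of letters and was not measured as a bound site. The genes that held CATTCC included 3 that rose and FLNC, which did not pass the test. PDLIM3, PDLIM5 and PDLIM7 rose without CATTCC in their stretches, and 6 of all 10 genes rose.

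Alpha-actinin-2, encoded by ACTN2 (ENSG00000077522, chromosome 1, 236686454 to 236764631, plus strand, GRCh38), is the muscle crosslinker of actin at the Z-disc. It stood at 6.60, 11.3, 13.8 and 9.25 CPM in control replicates 1 to 4 and at 7.22, 6.85, 6.40 and 7.21 CPM in the shPROX1 replicates. Control replicate 1 lay inside the range of the shPROX1 libraries, and the other control libraries lay above it. The fall (log2 change -0.53 ± 0.20, 95% interval -0.94 to -0.12, edgeR adjusted p = 0.0430) rested on 176 control and 114 shPROX1 counts. The call was lost with DESeq2 (adjusted p = 0.0909) and limma voom (adjusted p = 0.0792). Leaving out 1 library ended it for control replicate 2 (adjusted p = 0.106), control replicate 3 (0.192) and each of the 4 shPROX1 replicates (0.0696 to 0.0882), whereas without control replicate 1 the log2 change was -0.68 (adjusted p = 0.00494).

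Myopalladin, encoded by MYPN (ENSG00000138347, chromosome 10, 68106117 to 68212017, plus strand), links alpha-actinin to nebulin in the sarcomere. It stood at 15.8, 15.8, 16.9 and 14.8 CPM in control and at 31.9, 28.6, 35.8 and 32.1 CPM in shPROX1. The lowest shPROX1 library lay well above the highest control library. This rise of 2.06-fold (log2 change 1.04 ± 0.11, edgeR adjusted p = 5.87e-08) was the largest of the 10 genes. Of the 2147 genes called higher, 183 had a larger log2 change.

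Palladin, encoded by PALLD (ENSG00000129116, chromosome 4, 168497066 to 168928457, plus strand), is the broadly expressed paralog of myopalladin and organises actin bundles. Its levels were 31.8, 40.9, 38.9 and 40.5 CPM in control and 52.4, 54.1, 59.5 and 54.6 CPM in shPROX1. All shPROX1 libraries lay above all control libraries, and control replicate 1 was the lowest of the 8. PALLD rose 1.47-fold (log2 change 0.56 ± 0.08, edgeR adjusted p = 1.10e-05). Without control replicate 1 the log2 change was 0.48.

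Synaptopodin-2 (SYNPO2, also called myopodin, ENSG00000172403, chromosome 4, 118850688 to 119061247, plus strand) binds alpha-actinin and filamin. Control libraries held 77.3, 83.6, 87.1 and 90.8 CPM of SYNPO2, and shPROX1 libraries 118, 105, 112 and 99.95 CPM. The groups did not overlap, with control replicate 1 lowest and shPROX1 replicate 1 highest. The rise was 1.30-fold (log2 change 0.38 ± 0.06, edgeR adjusted p = 6.04e-05).

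The 4 PDZ-LIM genes split into 3 that rose and 1 that was too scarce to place. PDLIM3 (ALP, ENSG00000154553, chromosome 4, 185500660 to 185535612, minus strand) binds alpha-actinin in muscle. It stood at 202, 216, 219 and 231 CPM in control and at 259, 246, 262 and 262 CPM in shPROX1. PDLIM3 rose by the smallest amount of the 6 (1.21-fold, log2 change 0.27 ± 0.05, edgeR adjusted p = 1.85e-04), with no overlap of the groups. PDLIM5 (ENH, ENSG00000163110, chromosome 4, 94451857 to 94668227, plus strand) carries LIM domains that bind protein kinase C. Its control libraries stood at 61.9, 77.4, 67.7 and 77.1 CPM and its shPROX1 libraries at 96.4, 85.4, 94.7 and 86.2 CPM. The lowest control library was again replicate 1, and the groups did not overlap (log2 change 0.37 ± 0.07, edgeR adjusted p = 2.76e-04).

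PDLIM7 (Enigma, ENSG00000196923, chromosome 5, 177483394 to 177497606, minus strand) is an adaptor whose LIM domains bind kinases. It stood at 21.2, 21.9, 23.5 and 20.8 CPM in control and at 28.6, 25.9, 32.6 and 27.2 CPM in shPROX1. The groups did not overlap, and PDLIM7 rose 1.33-fold (log2 change 0.41 ± 0.10, edgeR adjusted p = 0.00329). LDB3 (ZASP or Cypher, ENSG00000122367, chromosome 10, 86668449 to 86736068, plus strand) is the striated muscle member of the family. It held 8, 13, 7 and 19 counts in the control and 10, 12, 13 and 7 counts in the shPROX1 libraries, so the groups overlapped over most of their range. Its log2 change of -0.06 ± 0.32 (95% interval -0.73 to 0.61, edgeR adjusted p = 0.909) leaves a change of the size seen in PALLD undetectable at this depth.

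Filamin C, encoded by FLNC (ENSG00000128591, chromosome 7, 128830377 to 128859274, plus strand), is the muscle filamin that crosslinks actin at Z-discs and at the membrane. FLNC stood at 713, 750.1, 823 and 784 CPM in control and at 724, 743, 741 and 783 CPM in shPROX1. The groups overlapped over most of their range. Summed counts were 13286 in control and 12292 in shPROX1. The log2 change was -0.01 ± 0.04 (edgeR adjusted p = 0.833), with a 95% interval of -0.11 to 0.08.

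Desmin (DES, ENSG00000175084, chromosome 2, 219418377 to 219426739, plus strand) was measured at 567, 535, 549 and 531 CPM in control and at 469, 446, 496 and 480.5 CPM in shPROX1. Each shPROX1 library lay below each control library. The fall was small, 11.9% by the log2 change of the edgeR fit (-0.18 ± 0.04, edgeR adjusted p = 0.00262). DES and FLNC together held 74.0% of the counts of the 10 genes in control and 67.7% in shPROX1. The summed CPM of the 10 genes was 1698 to 1840 in the control and 1743 to 1842 in the shPROX1 libraries, so the sums overlapped.

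**Figure D2:**
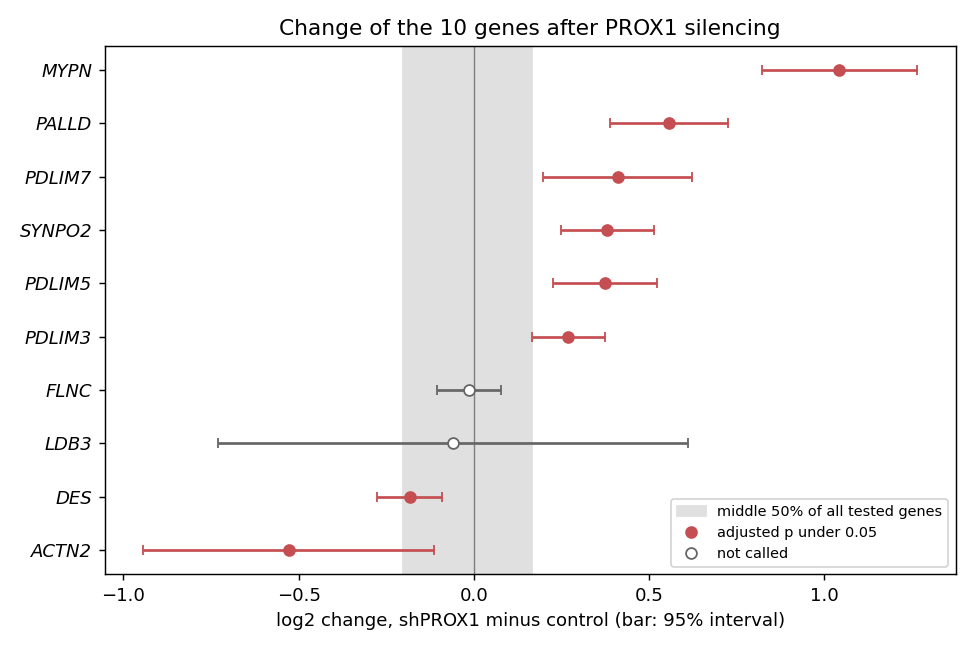
The log2 change of each gene (horizontal axis, shPROX1 minus control) is drawn as a point with its 95% interval, filled where the edgeR adjusted p was under 0.05, and the grey band spans the middle 50% of all tested genes (-0.20 to 0.17). The interval of FLNC is narrow around 0 and that of LDB3 wide, and MYPN stands alone at 1.04.

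Control replicate 1 was the lowest control library for 6 of the 10 genes (ACTN2, PALLD, PDLIM3, PDLIM5, FLNC and SYNPO2). Its part in the results was measured by leaving it out: again 6 of the genes were called higher and 2 lower, and the median log2 change of the 10 was 0.28. The 10 genes lie on 6 chromosomes. Chromosome 4 carries 4 of them (PALLD, PDLIM3, PDLIM5 and SYNPO2), and all 4 rose. Of the 430 tested genes on chromosome 4, 17.7% were called higher and 17.2% lower, with a median log2 change of -0.02.

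Levels of different genes were compared as CPM per kilobase of annotated exon. In control, DES was the most abundant of the 10 (221 ± 6.66 CPM per kb, n = 4), followed by FLNC (82.7 ± 5.04) and PDLIM3 (23.8 ± 1.32). PDLIM5 (6.41 ± 0.681 CPM per kb), SYNPO2 (6.03 ± 0.412), PDLIM7 (4.96 ± 0.269) and PALLD (3.76 ± 0.420) formed a middle group. MYPN (2.24 ± 0.123), ACTN2 (1.85 ± 0.553) and LDB3 (0.4003 ± 0.159 CPM per kb) were the lowest. Among neighbours in this order, PDLIM5 and SYNPO2 overlapped between libraries, as did MYPN and ACTN2, and the other neighbours did not. The order of the group means was the same in shPROX1, where SYNPO2 (7.74 ± 0.556) also overlapped PDLIM7 (6.49 ± 0.651 CPM per kb). After silencing, MYPN (4.55 ± 0.413 CPM per kb) no longer overlapped ACTN2 (1.25 ± 0.0692). With the longest coding sequence in place of the exon length, PDLIM3 stood at rank 2 and FLNC at rank 3 in control, and the ranks of the other 8 genes were the same. Exon length counts every annotated transcript of a gene, and PALLD, PDLIM5 and PDLIM7 have 18, 23 and 16 of them, so their levels per kb depend on which transcripts the cells make. Gene counts do not separate those transcripts.

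**Figure D3:**
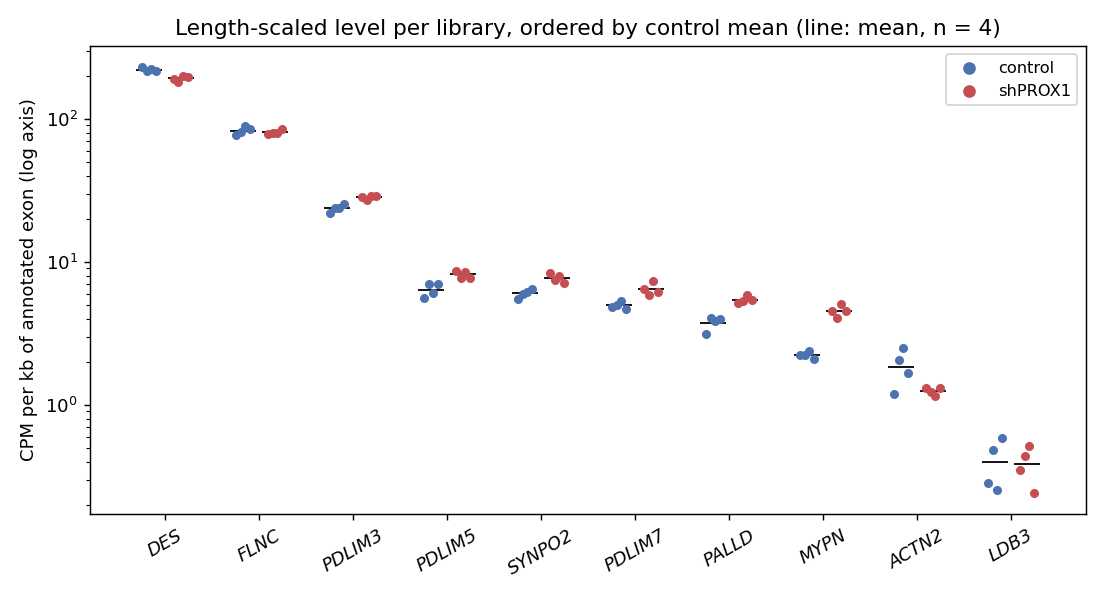
The level of each gene per library (vertical axis, CPM per kb of annotated exon, log scale) is ordered by the control mean, with control in blue, shPROX1 in red and the line at the mean of 4. DES at 221 CPM per kb and LDB3 at 0.4003 CPM per kb mark the ends of the order in control.

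Several of the genes have a relative with a different place in the cell, and the balance between them was followed as a ratio within each library. Apart from the constant added below, such a ratio does not depend on scaling between libraries. A set of 6 log2 ratios of CPM was tested, with 0.5 CPM added to each level, by exact two-sided permutation with Benjamini-Hochberg adjustment over the 6. The genes in these pairs were chosen with earlier results of these data known, so the p-values are read as a description. A change of the denominator alone can shift a ratio. The smallest p that the design allows is 0.0286, so no ratio can pass the adjustment over the 6 on its own. The paralog of ACTN2 chosen was ACTN1, the non-muscle alpha-actinin of stress fibres, which rose from 100.1 ± 2.35 to 140.0 ± 9.67 CPM (log2 change 0.51 ± 0.06, edgeR adjusted p = 2.39e-07). The log2 ratio of ACTN2 to ACTN1 was -3.81, -3.11, -2.78 and -3.40 in control and -4.21, -4.15, -4.47 and -4.14 in shPROX1. The groups did not overlap, and the ratio was lower in shPROX1 by 0.97 (permutation p = 0.0286, adjusted p = 0.0429), or 1.96-fold. The ACTN2 level on its own overlapped between groups.

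Filamin A, encoded by FLNA, is the filamin of most cell types and rose from 1162 ± 37.9 to 1560.0 ± 50.3 CPM (log2 change 0.45 ± 0.04). The log2 ratio of FLNC to FLNA was -0.68, -0.58, -0.56 and -0.57 in control and -1.09, -1.01, -1.09 and -1.05 in shPROX1. The difference of -0.46 (permutation p = 0.0286, adjusted p = 0.0429) arose with FLNC levels that overlapped between the groups. Vimentin, encoded by VIM, is the intermediate filament of myoblasts and mesenchymal cells, and rose from 1191 ± 27.9 to 1938 ± 14.4 CPM (log2 change 0.73 ± 0.03). VIM shares 12.4% of its exon bases with the antisense gene VIM-AS1, which had 98 counts over all libraries. The log2 ratio of DES to VIM was -1.07, -1.19, -1.13 and -1.12 in control and -2.06, -2.12, -1.96 and -1.998 in shPROX1. This shift of -0.91 (permutation p = 0.0286, adjusted p = 0.0429) was 1.88-fold.

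Within the palladin family the balance moved toward the muscle form. The log2 ratio of MYPN to PALLD was -0.99, -1.35, -1.18 and -1.42 in control and -0.71, -0.91, -0.73 and -0.76 in shPROX1, without overlap. The ratio was higher in shPROX1 by 0.46 (permutation p = 0.0286, adjusted p = 0.0429), opposite in sign to the 3 shifts above. All 4 p-values stood at the lower limit of the design. After adjustment over the 6 ratios, each passed only because the 4 reached that limit together. Without any 1 of the 4 shPROX1 libraries the 4 ratios kept their direction and their groups stayed apart, and the permutation p was 0.0286 for FLNC to FLNA and DES to VIM and 0.0571 for MYPN to PALLD and ACTN2 to ACTN1. Adjusted over the 6 ratios, none of the 4 then passed (permutation adjusted p = 0.0857). The ratio of PDLIM3 to PDLIM7 (3.28 ± 0.113 in control and 3.15 ± 0.117 in shPROX1 on the log2 scale, n = 4) and that of LDB3 to PDLIM5 (-4.55 ± 0.359 and -4.92 ± 0.368) overlapped between groups and did not pass (permutation p = 0.200 and adjusted p = 0.200 for each).

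**Figure D4:**
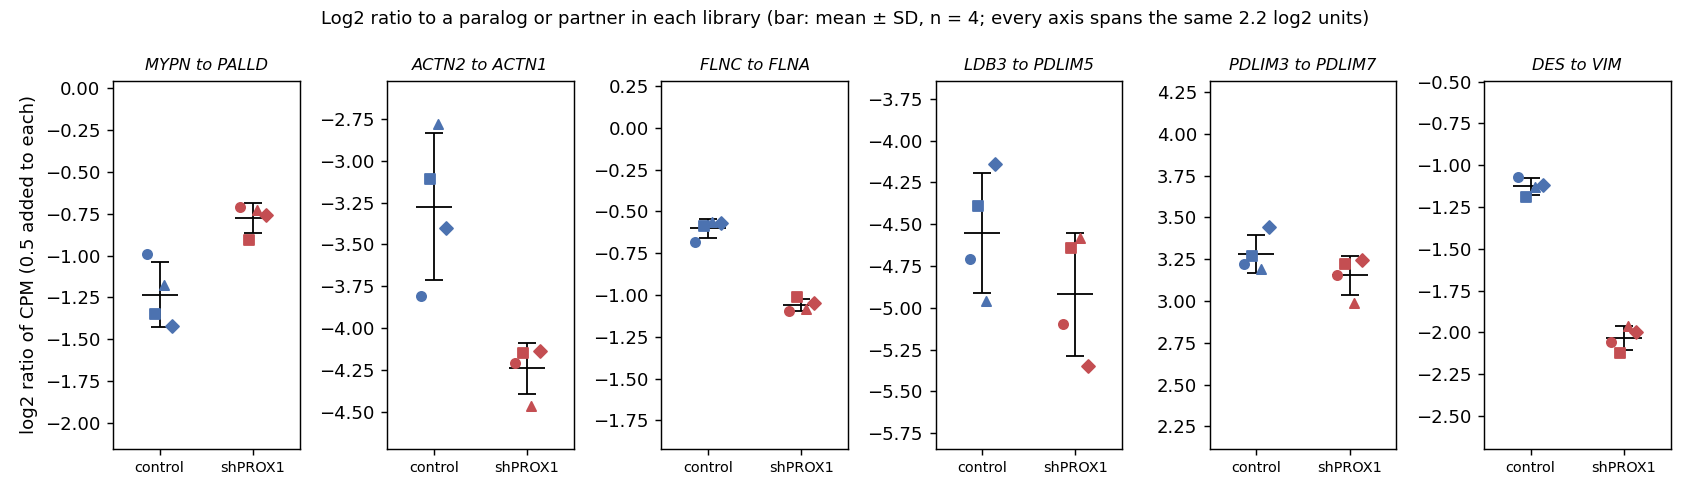
Each panel gives the log2 ratio of CPM of a gene to its paralog or partner in the 4 control (blue) and 4 shPROX1 (red) libraries, with the mean ± SD as a bar and the same axis length throughout. The shPROX1 libraries lie below control for ACTN2 to ACTN1, FLNC to FLNA and DES to VIM and above control for MYPN to PALLD.

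Most of the other relatives of the 10 genes that could be tested rose. Of 11 further paralogs, 8 were tested, and 6 were higher, 0 lower and 2 not called, with a median log2 change of 0.47. The shares over all tested genes, for this list and those that follow, were 17.3% higher and 17.9% lower. PDLIM1 (CLP36, a PDZ-LIM protein of stress fibres) rose from 3.96 ± 1.39 to 6.85 ± 0.753 CPM (log2 change 0.82 ± 0.23) and PDLIM2, also a PDZ-LIM protein, from 9.41 ± 1.59 to 15.2 ± 3.001 CPM (0.71 ± 0.17), both with groups that overlapped. ACTN4, the second non-muscle alpha-actinin, rose from 329.6 ± 12.9 to 459 ± 21.1 CPM (0.50 ± 0.05). It shares 14.2% of its exon bases with CAPN12, which had 1 count over all libraries. PDLIM4 (log2 change 0.15 ± 0.11) did not pass.

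Other Z-disc and I-band partners went both ways. Of 30 listed, 20 were tested, with 6 higher, 4 lower and 10 not called, and a median log2 change of -0.04. MYOZ2, a calsarcin that tethers calcineurin to the Z-disc, fell from 7.22 ± 1.05 to 3.64 ± 2.09 CPM (log2 change -0.96 ± 0.28, edgeR adjusted p = 0.00973). The LIM-only proteins CSRP2, which binds alpha-actinin, and FHL2 rose, CSRP2 from 101 ± 9.16 to 178 ± 4.49 CPM (0.84 ± 0.06) and FHL2 from 14.4 ± 2.08 to 24.9 ± 2.05 CPM (0.82 ± 0.12). CAPZA2, a subunit of the actin capping protein, had a log2 change of -0.03 ± 0.05 and did not pass. TCAP, CSRP3 and MYOZ3 were among the 10 listed genes below the filter on low counts.

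Desmin partners and other intermediate filament genes counted 5 higher, 2 lower and 2 not called among 9 tested of 12, with a median log2 change of 0.31. Apart from VIM, the cytolinker PLEC rose from 586 ± 42.1 to 843 ± 30.9 CPM (log2 change 0.55 ± 0.05) and the keratin KRT18 rose by 0.47 ± 0.06 on the same scale. NES, the nestin of immature muscle, fell from 1338 ± 63.3 to 856 ± 45.4 CPM (-0.62 ± 0.04), more than DES did. KRT8, which shares exon bases with KRT18 on the opposite strand, had a log2 change of 0.31 ± 0.17 and did not pass.

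Protein quality control genes of the filament system counted 4 higher, 3 lower and 3 not called among 10 tested of 14, with a median log2 change of 0.08. BAG3 and its partner HSPB8, which take part in the chaperone-assisted disposal of damaged filamin, rose, BAG3 from 32.3 ± 4.69 to 51.7 ± 2.64 CPM (log2 change 0.70 ± 0.09) and HSPB8 from 61.5 ± 4.07 to 108 ± 3.57 CPM (0.83 ± 0.06). SQSTM1, an autophagy receptor, rose by 0.55 ± 0.05, and shares 20.7% of its exon bases with MRNIP on the opposite strand, which had 527 counts. UNC45B, the myosin chaperone of muscle, fell from 34.7 ± 1.90 to 16.4 ± 1.52 CPM (-1.05 ± 0.10). HSPB1 (-0.02 ± 0.06) did not pass. Among muscle regulators, MYOG, which drives terminal differentiation, fell from 121 ± 5.27 to 47.8 ± 2.69 CPM, and MYOD1 did not pass (log2 change 0.04 ± 0.07).

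**Figure D5:**
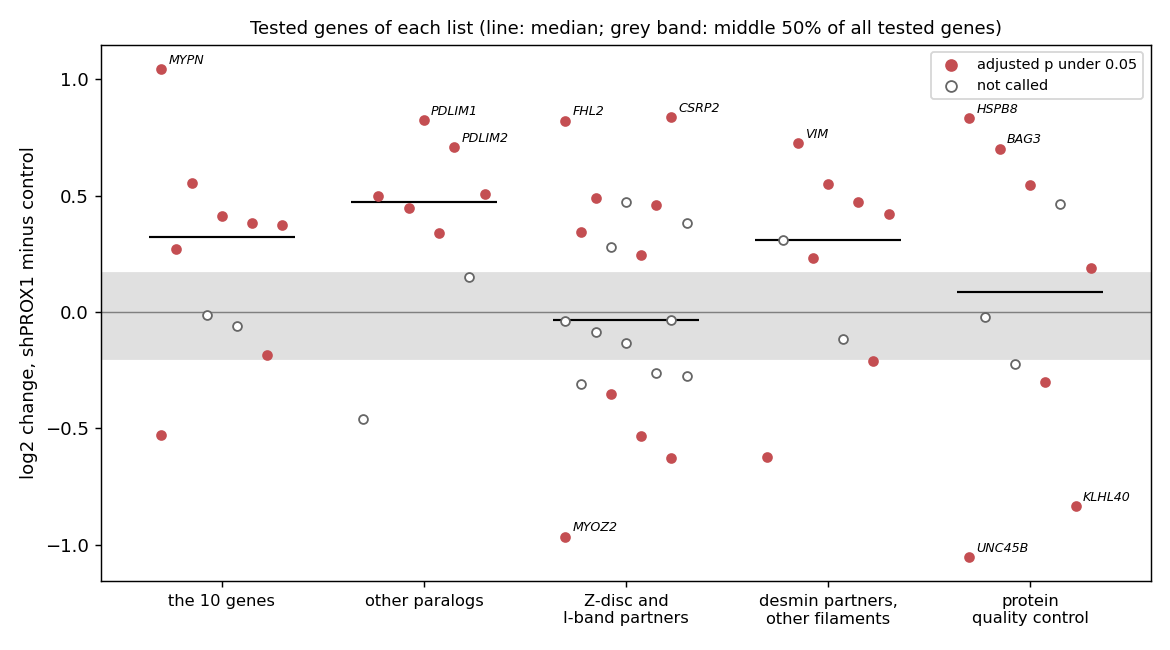
The log2 change (vertical axis, shPROX1 minus control) of each tested gene is plotted by list, filled where the edgeR adjusted p was under 0.05, with the median as a line and the middle 50% of all tested genes as a grey band. The medians are 0.32 for the 10 genes, 0.47 for their other paralogs and -0.04 for the other Z-disc and I-band partners.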

How the data were processed

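Total RNA of RD cells (8 samples) was made into libraries with a strand-keeping kit, per the labels' protocols. The authors deposited raw counts per gene, 1 table per library, with coordinates, per the file headers. Tools listed in the submitters' processing notes are HISAT2, HTSeq, FastQC and DESeq2, with the build GRCh38. Versions, annotation release and strand setting are not given in the sources used here. Genes that overlap on opposite strands may share reads. Identifiers were matched to GENCODE 29 (58039 of 58302), which gave symbols, coordinates (1-based) and exon lengths.

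CPM are counts over the library total. The count test was the quasi-likelihood test of edgeR 4.0.16 (R 4.3.3), with filterByExpr at a minimum count of 10, TMM factors and group as the only term. The standard error was taken as the absolute log2 change divided by the square root of the F statistic of that test. The 95% intervals follow from it. Ratios and PROX1 were tested by exact permutation of the 8 libraries (70 arrangements). Every pair of libraries of a group differed beyond sampling noise, and none was treated as a copy. The chi-square per degree of freedom was 2.39 to 6.34 for control pairs and 1.19 to 2.16 for shPROX1 pairs. P-values measure the spread between these libraries. The pipeline was tested on simulated data.

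The genes and lists were chosen with earlier results of these data known. Besides the 10 genes, the text names PROX1, the ratio partners, MYOD1, MYOG and, per list, the 4 called genes of at least 5 CPM with the largest change and the most abundant uncalled one. One result under that rule is not reported here. TCAP, CSRP3, MYOZ3 and the markers were named outside that rule. The alternatives comprised 2 other scalings (upper quartile, RLE), no filter, 1 CPM in 4 libraries, DESeq2 1.42.0, limma 3.58.1 (voom), an adjusted threshold of 0.01, a replicate block, leaving out each library, and pseudocounts of 0.1 and 2 CPM for ratios. A length from the RefSeq protein was not used here, and the coding length in GENCODE was chosen in its place after seeing the files.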

Additional observations from a re-analysis of the deposited data

How the results depend on the processing

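The 6 rises and the fall of DES were called under all 16 alternatives, with log2 changes of 0.997 to 1.09 for MYPN and -0.20 to -0.16 for DES. ACTN2 kept its direction and lost its call under 9 of the 16 (adjusted p 0.00494 to 0.192), so the number of falling genes was 1 with DESeq2, 1 with limma voom, 1 at an adjusted threshold of 0.01 and 1 to 2 with 1 library left out. The cause was not tested. With 1 library left out, the log2 change of FLNC was -0.045 to 0.020 (0.020 without control replicate 3 and 1.6e-04 without shPROX1 replicate 1). That of LDB3 was -0.22 to 0.20, positive without control replicate 2 (0.026), control replicate 4 (0.20) or shPROX1 replicate 4 (0.11). The 4 called ratios then differed by 0.40 to 0.54 (MYPN to PALLD), -1.15 to -0.80 (ACTN2 to ACTN1), -0.49 to -0.45 (FLNC to FLNA) and -0.93 to -0.88 (DES to VIM). Each lost its call without any 1 of the shPROX1 libraries (adjusted p = 0.0857), where the unadjusted permutation p was 0.0571 for the first 2 and 0.0286 for the last 2. Same-numbered libraries did not deviate together (correlations -0.0334, -0.0508, 0.0501 and -0.0317), and differently numbered ones gave -0.179 to 0.129. The sources used here do not say whether the cultures were paired, and so few libraries cannot settle it. With the replicate block, 2075 genes were called higher and 2112 lower, with 6 and 2 of the 10 genes. An exact sign-flip test within the block, which cannot go below 0.125 unadjusted, gave differences of 0.46, -0.97, -0.46 and -0.91 for the same 4 ratios (adjusted p = 0.150). The low counts of LDB3 and ACTN2 limit their precision.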
